A study of Mus musculus with 12 samples.

Results

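TRBJ2-7 is the last functional joining (J) segment of the mouse T cell receptor (TCR) beta locus, and 19963 of the 113665 clonotypes in 12 TCR beta libraries (17.6%) carried it. A member was any clonotype whose best J assignment was TRBJ2-7. These clonotypes held 279472 of the 1716882 unique molecular identifiers (UMIs, tags that each mark 1 cDNA molecule), or 16.3%. The assignment was to TRBJ2-7 alone in 19871 members, and 92 members had at least 1 further J hit.

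The libraries came from CD4+ T cells of strain C57BL/6 that had been transferred as naive cells into Rag2-/- recipients (Rag KO in the labels). These recipients lack mature T and B cells of their own and serve in a T cell transfer model of colitis. The paper reports weight loss in recipients of WT cells, whereas recipients of KO cells kept their weight and had mild inflammation. Donor cells were WT (PRKAA1fl/fl) or KO (CD4-Cre PRKAA1fl/fl), so both genotypes carried the floxed gene for AMPKα1, the catalytic subunit of an energy-sensing kinase, and CD4-Cre deleted it at the CD4+CD8+ thymocyte stage. Cells were isolated from spleen and mesenteric lymph node (mLN) 6 weeks after transfer, and the mice of the study were generally 6 to 8 weeks old. There were 3 WT mice (replicates 1, 3 and 4) and 3 KO mice (replicates 1, 2 and 3), each with a library from both organs, all from a single experiment. A spleen and an mLN library that share genotype and number were treated as coming from the same animal. TCR libraries hold no transcript of Prkaa1 and no cell type marker, so neither the deletion nor the cell type could be checked in them.

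A TCR beta chain is built in the thymus by joining a V, a D and a J segment, and bases are trimmed and added at each joint. The joint encodes the complementarity-determining region 3 (CDR3), the most variable part of the receptor, which contacts the presented peptide. TRBJ2-7 contributes the end of the CDR3, with the amino acids SYEQYF when its coding end is complete. Because the TRBD2 segment lies downstream of the whole TRBJ1 cluster, TRBJ1 segments normally join to TRBD1, whereas TRBJ2 segments can join to either D segment.

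The germline segment lay at chr6:41543810-41543856 (plus strand, GRCm38 reference annotation, a J gene of 47 bases), 1056 bases downstream of the start of TRBJ2-1 and 1647 bases downstream of the start of TRBD2. It is shown with TRBJ2-5 (chr6:41543453-41543501) and TRBJ2-1 (chr6:41542754-41542803), the J segments whose CDR3 ends differ least from it, and capitals mark the part that lies inside the CDR3.
TRBJ2-7: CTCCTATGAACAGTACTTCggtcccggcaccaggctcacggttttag
TRBJ2-5: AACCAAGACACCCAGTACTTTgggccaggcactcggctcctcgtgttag
TRBJ2-1: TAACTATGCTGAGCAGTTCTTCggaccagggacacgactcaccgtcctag
The CDR3 part of TRBJ2-7 was 19 bases long and was the shortest among the 12 J segments in use, of which the others contributed 20 to 25 bases.

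The data varied strongly in depth. A library held 2488 UMIs at the shallowest (KO replicate 3 mLN) and 493287 at the deepest (WT replicate 3 spleen), so that TRBJ2-7 was represented by 294 to 72746 UMIs and 42 to 5798 clonotypes. Of the members, 15425 (77.3%) were clonotypes of 1 UMI. In frame without a stop codon were 16343 members, 2180 were out of frame and 1440 held a stop codon. Measures of rearrangements therefore used the 3879 in-frame members with at least 2 UMIs, of 21684 such clonotypes over all J segments.

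The libraries fell into kinds by the last 9 bases of the CDR3, which J segments fix. The usual TRBJ2-7 end was present in 15693 members, 690 members carried the usual end of TRBJ2-5 instead and 666 that of TRBJ2-1. In 7 libraries 19.1% to 29.7% of the TRBJ2-7 clonotypes of 1 UMI had an unusual end, whereas in the other 5 (both organs of WT replicate 1 and KO replicate 1, and KO replicate 3 mLN) this share was 0 to 8.26%. These 5 libraries were also the shallowest, with 2488 to 64882 UMIs, against 68536 to 493287 in the 7 others. Kind and depth therefore cannot be told apart. Members with an unusual end held between 0.116% and 3.89% of the TRBJ2-7 UMIs of a library. Only 95 of these members had at least 2 UMIs.

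TRBJ2-7 was the most used J segment when each rearrangement was counted once. It made up 14.3% to 19.3% of clonotypes per library (17.5% ± 1.34, SD, n = 12 libraries of 6 mice) and ranked first in all 12 libraries. TRBJ2-5 followed with 13.1% ± 1.25, and its share was below that of TRBJ2-7 in 12 of 12 libraries, although the ranges over libraries (10.3% to 14.98% for TRBJ2-5) overlapped. Among out-of-frame clonotypes, which encode no receptor, TRBJ2-7 took 16.2% ± 2.16 (SD, n = 6 mice, 619 of 3773 clonotypes), against 17.5% ± 0.834 among in-frame ones. The test of the out-of-frame share itself (12.5% ± 1.87 of TRBJ2-7 clonotypes and 13.6% ± 2.87 of those with other J segments) gave a two-sided exact sign-flip p of 0.219 over 6 mice (adjusted 0.306 over 7 measures).

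**Figure D1:**
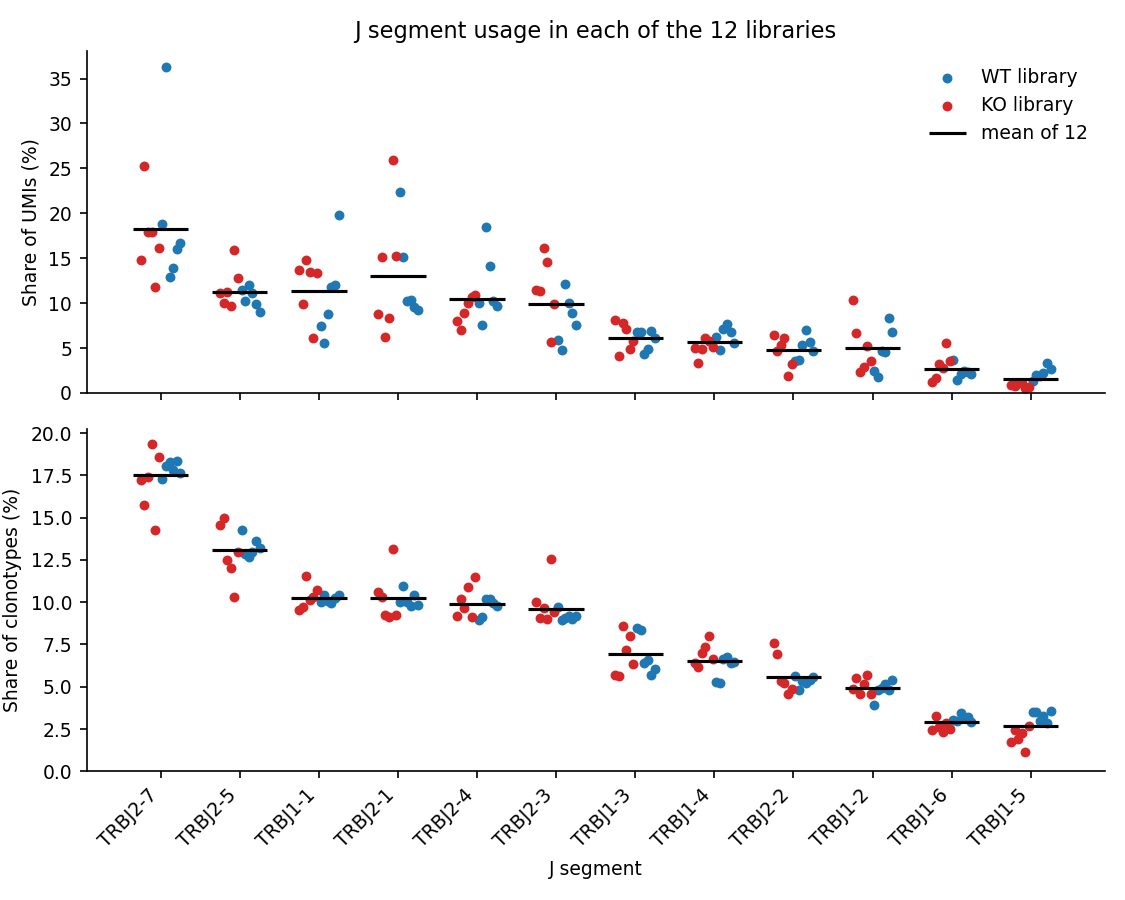
Share of each J segment in every library (points, WT in blue and KO in red, with the mean of 12 as a bar), by UMIs in the upper panel and by in-frame clonotypes of at least 2 UMIs in the lower panel. TRBJ2-7 lies highest of all J segments in each library in the lower panel, between 14.3% and 19.3%, whereas by UMIs it runs from 11.8% to 36.3%.

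Counted by UMIs, which follow how far clones had expanded, TRBJ2-7 varied far more. More cells of a clonotype and more TCR beta RNA per cell cannot be told apart in such counts. In spleen its share was 36.3% in WT replicate 1, 13.96% in WT replicate 3 and 16.7% in WT replicate 4, against 25.3%, 17.9% and 16.1% in KO replicates 1, 2 and 3. In mLN the WT shares were 18.8%, 12.9% and 16.1% and the KO shares 14.8%, 18.0% and 11.8%. The 2 spleen libraries of replicate 1 were the highest of their genotype, and WT and KO overlapped in both organs. Wilson 95% intervals, which cover counting error only, were narrow beside this spread and widest in the shallowest library (10.6% to 13.1% in KO replicate 3 mLN).

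By UMIs, TRBJ2-7 ranked 1 in 7 libraries, 2 in 4 and 3 in 1, with a mean of 18.2% ± 6.66 (SD, n = 12 libraries). The segments nearest to it were TRBJ2-1 (13.04% ± 5.98, below TRBJ2-7 in 10 of 12 libraries) and TRBJ1-1 (11.4% ± 4.07, below it in 11 of 12), and their ranges overlapped with that of TRBJ2-7. Across the 12 libraries, which are pairs of organs from 6 mice and whose shares sum to a constant, no J segment followed TRBJ2-7 closely. The highest Pearson coefficients of log2 shares were 0.18 for TRBJ1-3, 0.13 for TRBJ1-5 and 0.08 for TRBJ2-1, with Spearman coefficients of 0.22, 0.07 and −0.04.

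The largest TRBJ2-7 clonotype of a library set much of its UMI share. The 5 clonotypes shown are the leading ones of WT replicate 1 and KO replicate 1 and of the deepest WT and KO spleen libraries. In the replicate 1 mice the leading clonotype weighed most, as a mean over both organs. The nucleotide sequence of each CDR3 is given, with its amino acids where short, and capitals mark the bases aligned to TRBJ2-7, which here and below can include a mismatch with the germline.
TRBV13-3 clonotype, WT replicate 1 spleen: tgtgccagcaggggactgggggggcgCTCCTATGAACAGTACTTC
TRBV16 clonotype, WT replicate 1 mLN: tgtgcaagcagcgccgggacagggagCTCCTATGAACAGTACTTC
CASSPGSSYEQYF (TRBV15, KO replicate 1, both organs): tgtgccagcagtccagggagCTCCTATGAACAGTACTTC
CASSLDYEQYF (TRBV3, WT replicate 3, both organs): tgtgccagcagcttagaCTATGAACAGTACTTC
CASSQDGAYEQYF (TRBV2, KO replicate 3 spleen): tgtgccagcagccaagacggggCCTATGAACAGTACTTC
The first 3 used the complete TRBJ2-7 coding end, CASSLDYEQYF had lost 3 bases of it and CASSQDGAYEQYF 2.

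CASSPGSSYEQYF held 9981 UMIs and 60.8% of the TRBJ2-7 UMIs in KO replicate 1 spleen, and 819 UMIs and 23.2% in the mLN of the same mouse. In WT replicate 1 the TRBV13-3 clonotype held 1887 UMIs and 46.1% of the TRBJ2-7 UMIs in spleen, whereas the TRBV16 clonotype led in mLN with 376 UMIs and 16.7%. Each of these clonotypes was also found in the other organ of its mouse, the TRBV16 clonotype with 723 UMIs or 6.41% of the spleen library. In the other 8 libraries the largest TRBJ2-7 clonotype held 6.72% to 18.4% of the TRBJ2-7 UMIs. With the largest TRBJ2-7 clonotype of each library left out, the TRBJ2-7 share was 23.5% in place of 36.3% in WT replicate 1 spleen and 11.7% in place of 25.3% in KO replicate 1 spleen.

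Among the largest clonotypes TRBJ2-7 held about as many places as its number of rearrangements gives. It took 22 of the 120 places among the 10 largest clonotypes of the libraries (1 to 4 per library), where its share of clonotypes corresponds to 21.0, and 11 to 21 of the 100 largest (mean 16.3 ± 3.72, against 17.5). The clone size index, the log2 ratio of the UMI share to the clonotype share, was −0.01 ± 0.37 for TRBJ2-7 and −0.02 ± 0.10 for the other J segments (SD, n = 6 mice). The difference was 0.01 ± 0.47 (two-sided exact sign-flip p = 1, n = 6), and 2 of 6 mice had the higher value with TRBJ2-7. The index was highest in WT replicate 1 spleen (1.03) and KO replicate 1 spleen (0.69) and lowest in WT replicate 3 mLN (−0.53).

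To ask whether loss of AMPKα1 altered the use of TRBJ2-7, WT and KO T cells were compared in each organ with edgeR over the 12 J segments. In spleen the TRBJ2-7 share of UMIs was 22.3% ± 12.2 for WT T cells and 19.8% ± 4.88 for KO T cells (log2 fold change −0.17, SE 0.44, edgeR adjusted p = 0.983). Without WT replicate 1 the log2 fold change turned to 0.37, so the sign rested on that mouse. The difference was −10.99 percentage points within the libraries with few unusual ends, with 1 mouse per genotype, and 1.70 within those with many, with 2 per genotype. The exact permutation test over the 20 assignments of mice, which cannot go below p = 0.1, gave p = 0.9. Of the 12 J segments, 1 (8.33%) passed an adjusted p of 0.05 in this comparison, and it was not TRBJ2-7. DESeq2 called 2 (16.7%), 1 in each direction, and TRBJ2-7 was again not among them (DESeq2 adjusted p = 0.953).

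In mLN its share of UMIs was 15.9% ± 2.97 for WT and 14.9% ± 3.07 for KO T cells (log2 fold change −0.10, SE 0.27, edgeR adjusted p = 0.910, exact permutation p = 0.7). The sign turned without WT replicate 1 and without KO replicate 3 (0.04 in each case), and within kinds the difference was −5.50 (1 WT and 2 KO mice with few unusual ends) and 3.49 percentage points (2 WT and 1 KO). None of the 12 J segments passed here with edgeR (0.0%) or with DESeq2, and 1 had an unadjusted p under 0.05 with either tool.

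Clonotype counts gave a narrower comparison. In spleen 17.8% ± 0.184 of WT and 17.9% ± 1.89 of KO clonotypes used TRBJ2-7 (log2 fold change 0.04, SE 0.06, edgeR adjusted p = 0.932, with 8.33% of J segments called). In mLN 18.0% ± 0.601 of WT and 16.3% ± 1.75 of KO clonotypes used it (log2 fold change −0.09, SE 0.05, edgeR adjusted p = 0.590, 8.33% called). The lowest mLN value, 14.3% in KO replicate 3, rested on 25 TRBJ2-7 clonotypes of 175 (Wilson 95% interval 9.87% to 20.2%).

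**Figure D2:**
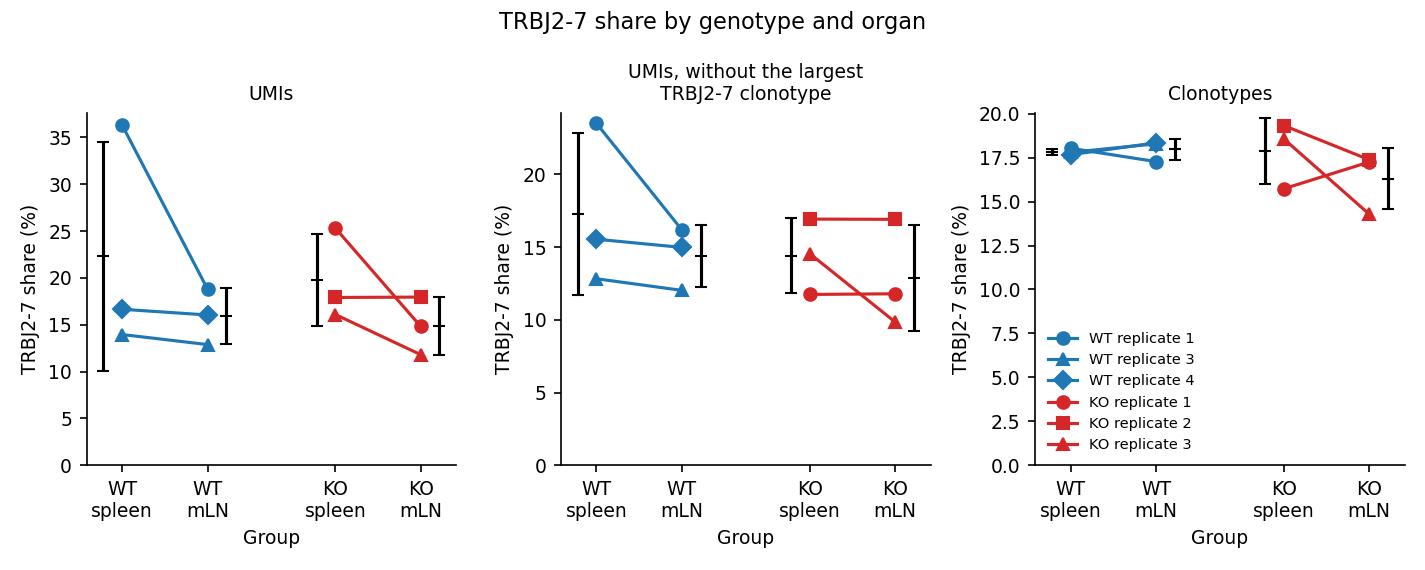
TRBJ2-7 share of UMIs, of UMIs without the largest TRBJ2-7 clonotype, and of in-frame clonotypes of at least 2 UMIs, with a line joining the organs of each mouse and black bars for the group mean ± SD (n = 3). WT and KO overlap in every panel by UMIs, and WT replicate 1 spleen stands highest at 36.3% before and 23.5% after its largest clonotype is left out.

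Between organs, the TRBJ2-7 UMI share was lower in mLN than in spleen in 5 of 6 mice, with means of 15.4% ± 2.76 and 21.0% ± 8.42 (difference −5.65 ± 6.99 percentage points, exact sign-flip p = 0.0625). In KO replicate 2 the organs were nearly equal at 18.0% and 17.9%, and the gap was widest in WT replicate 1. The edgeR fit with the mouse as a block gave a log2 difference of −0.39 (SE 0.15), and its unadjusted p of 0.0354 did not pass after adjustment over the J segments (edgeR adjusted p = 0.302). No J segment passed in this comparison (0.0%) with edgeR or DESeq2, and 1 had an unadjusted p under 0.05 with either. Without the largest TRBJ2-7 clonotype the difference was −2.22 ± 3.06 percentage points, and by clonotypes it was −0.715 ± 2.12 (exact sign-flip p = 0.5), with 3 of 6 mice higher in mLN. The organ difference did not separate WT from KO (edgeR interaction log2 −0.04, SE 0.33, adjusted p = 0.918, with 0.0% of J segments called by edgeR or DESeq2 and none at an unadjusted p under 0.05).

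Most TRBJ2-7 UMIs belonged to clonotypes found in both organs of a mouse. Clonotypes present in both held 88.5% to 97.6% of the TRBJ2-7 UMIs in mLN and 49.3% to 97.4% in spleen, where the lowest value, in KO replicate 3, was set against an mLN library with only 42 TRBJ2-7 clonotypes. Counted once, 1.37% to 59.2% of spleen and 20.7% to 92.9% of mLN TRBJ2-7 clonotypes were shared. The Morisita-Horn index, which is 1 when both organs hold the same clonotypes at the same frequencies, was 0.683 ± 0.187 for TRBJ2-7 and 0.691 ± 0.137 for other J segments (exact sign-flip p = 0.906, n = 6 mice).

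In all 6 mice the TRBJ2-7 junctions were shorter on average than those of the other J segments combined. The mean CDR3 length was 40.1, 39.9 and 39.6 nucleotides in WT replicates 1, 3 and 4 and 39.3, 39.8 and 40.0 in KO replicates 1, 2 and 3, whereas the other J segments lay between 41.6 and 41.9. The groups of values did not overlap, and the difference was −1.93 ± 0.383 nucleotides (SD, n = 6 mice, lower in 6 of 6). The exact sign-flip p of 0.031 is the smallest that 6 mice can give, and adjusted over the 7 measures it was 0.0547, above 0.05. TRBJ1-1, with 20 germline bases in the CDR3, had nearly the same mean length (39.8 ± 0.355) as TRBJ2-7 (39.8 ± 0.303).

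In amino acids, 26.7% ± 4.29 of TRBJ2-7 clonotypes had a CDR3 of 13 residues and 28.7% ± 3.56 one of 14. Lengths of 12 took 17.7% ± 2.57 of TRBJ2-7 and 9.15% ± 0.720 of other clonotypes, and lengths of 16 took 2.14% ± 0.934 and 7.89% ± 0.772.

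In all 6 mice, too, more bases were missing from the TRBJ2-7 end. On average 3.48 ± 0.106 bases were trimmed from it, against 2.52 ± 0.0965 from the other J segments (difference 0.953 ± 0.110, exact sign-flip p = 0.031, adjusted 0.0547, all 6 mice higher). Values were 3.36 to 3.59 for TRBJ2-7 over the mice and 2.41 to 2.61 for other J segments. TRBJ2-1 (3.62 ± 0.323) and TRBJ1-6 (4.47 ± 0.560) were trimmed by more bases than TRBJ2-7. A trimmed base that was replaced by the same base counts as kept in such alignments.

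Among TRBJ2-7 ends that had lost bases, loss of 4 was the most frequent, in 21.9% ± 2.56 of all TRBJ2-7 clonotypes. The other J segments, pooled, had 11.04% ± 0.972, and the distributions of single segments were not compared. A complete end to which the alignment assigned bases beyond its germline start was found in 20.1% ± 2.59 (19.0% ± 1.43 for other J segments). A complete end without such assigned bases was found in 4.68% ± 1.77 (12.1% ± 1.11 for other J segments). Other bases inserted in front of the J part do not enter this distinction. Complete TRBJ2-7 ends, with and without such assigned bases together, were more frequent than loss of 4 bases. Loss of 3, 6 and 7 bases was found in 12.9% ± 1.98, 11.1% ± 2.18 and 11.2% ± 2.45. Other J segments had 12.7% ± 1.74, 6.22% ± 0.927 and 4.88% ± 0.416. Loss of 1 or 2 bases was rarer, at 3.85% ± 1.66 and 5.27% ± 1.30, where other J segments had 12.6% ± 1.32 and 11.2% ± 0.687. In the sequence printed above, a loss of 4 bases leaves the complete tyrosine codon at the front and a loss of 7 the glutamate codon.

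**Figure D3:**
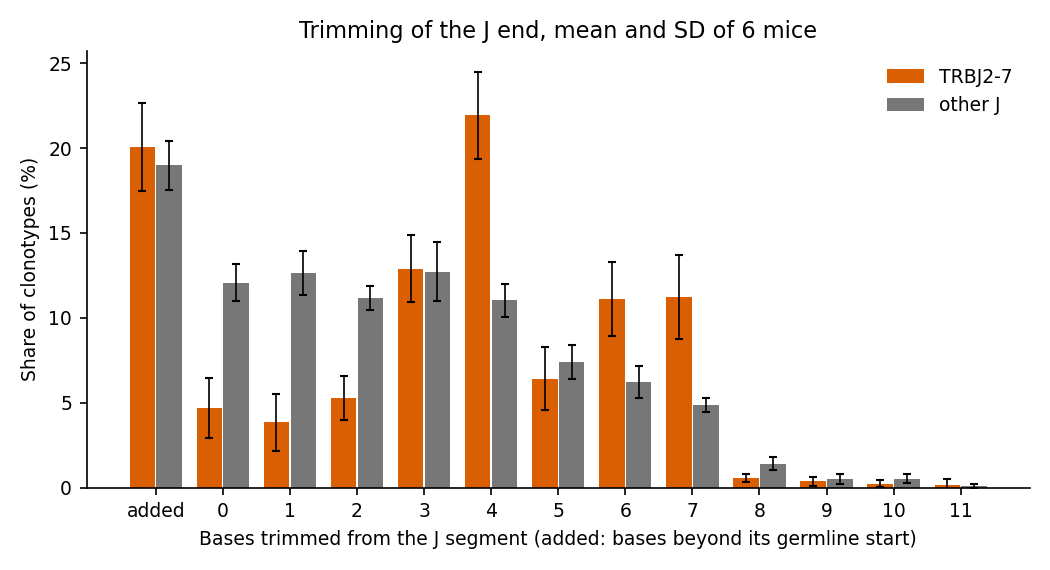
Share of in-frame clonotypes of at least 2 UMIs by the number of bases trimmed from the J segment, for TRBJ2-7 (orange) and all other J segments (grey), as mean and SD of 6 mice. Among trimmed ends TRBJ2-7 peaks at 4 bases (21.9%), with a further maximum at 6 and 7 bases. The other J segments, pooled, have no such peak at 4 bases (11.04%), and single segments are not drawn. The added class holds complete ends to which the alignment assigned bases beyond the germline start. It is a maximum in both sets, at 20.1% for TRBJ2-7 and 19.0% for other J segments.

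At the protein level, 39.5% ± 2.16 of TRBJ2-7 clonotypes ended in YEQYF without the serine, 29.6% ± 1.83 in EQYF without the tyrosine and 27.8% ± 1.28 in SYEQYF. Only 1.40% ± 0.546 kept no more than QYF and 1.64% ± 1.05 had none of these endings. WT and KO were close, with 27.04% ± 1.40 and 28.7% ± 0.432 for SYEQYF, 40.2% ± 2.09 and 38.7% ± 2.37 for YEQYF, and 29.0% ± 1.99 and 30.2% ± 1.84 for EQYF. Weighted by UMIs the order changed to 38.3% ± 19.5 for SYEQYF and 34.4% ± 15.3 for YEQYF, and SYEQYF ranged from 15.2% to 79.7% over libraries.

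Between the end of the V and the start of the J part, TRBJ2-7 clonotypes held 9.69 ± 0.267 bases and other clonotypes 8.58 ± 0.157 (difference 1.11 ± 0.407, exact sign-flip p = 0.031, adjusted 0.0547, all 6 mice higher). Bases that the alignment assigned to the J side beyond its germline start were not counted here. TRBJ2-1 had 9.84 ± 0.649. In a comparison with other TRBJ2 segments alone, chosen after the data were seen, the difference was 0.603. Weighted by UMIs in place of clonotypes, the differences were −1.42 nucleotides for CDR3 length (exact sign-flip p = 0.0938), 0.266 for bases trimmed (exact sign-flip p = 0.469) and 0.532 for bases between V and J (exact sign-flip p = 0.406).

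Among clonotypes with a D assignment, 60.9% ± 5.28 of those with TRBJ2-7 had TRBD2, against 37.8% ± 1.23 of those with other J segments (difference 23.1 ± 6.39 percentage points, exact sign-flip p = 0.031, adjusted 0.0547, all 6 mice higher). Most of this difference was between the J clusters: set against the other TRBJ2 segments alone it was 5.41 ± 5.21 (exact sign-flip p = 0.0625), and KO replicate 1 had 52.7% for TRBJ2-7 and 54.4% for other TRBJ2. Over all clonotypes, TRBD2 was assigned to 46.8% ± 4.81 and TRBD1 to 29.9% ± 3.60 of TRBJ2-7 clonotypes, and 23.3% ± 2.23 had no D assignment. TRBJ1 clonotypes still had TRBD2 in 5.43% ± 1.22, a level of assignment in junctions where TRBD2 normally cannot take part.

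**Figure D4:**
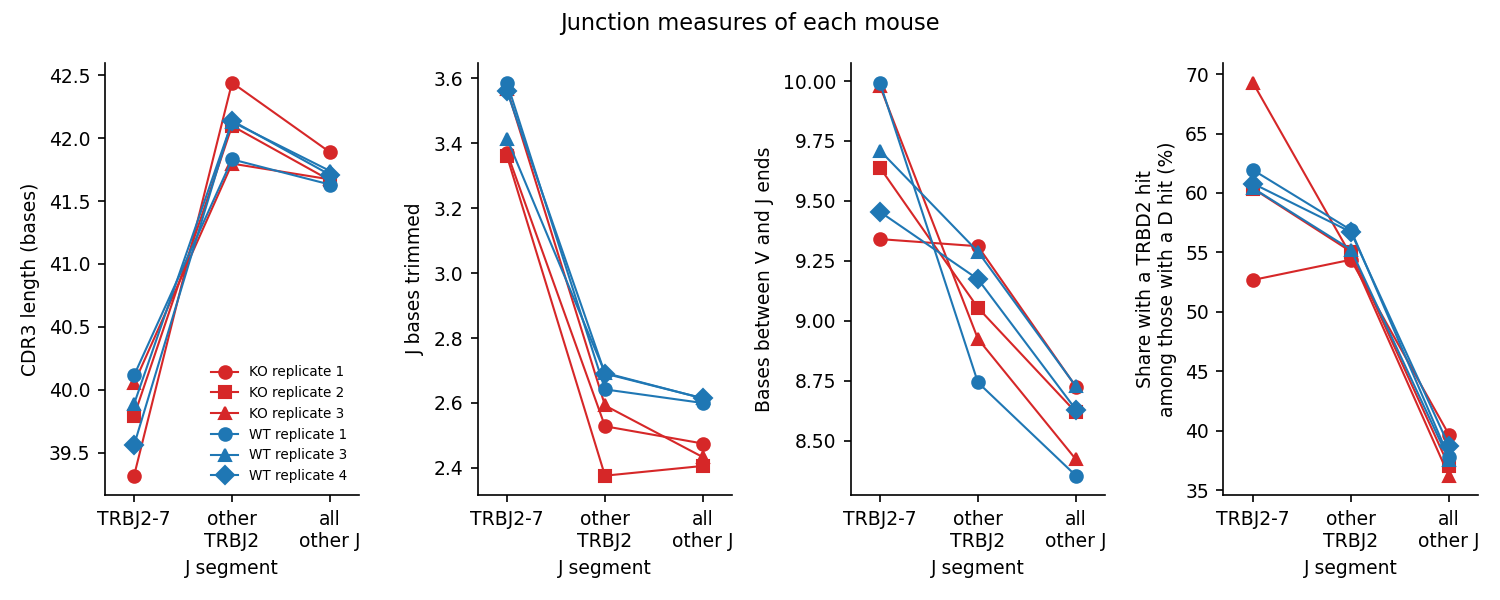
CDR3 length, J bases trimmed, bases between the V and J ends, and the share with TRBD2 among clonotypes with a D assignment, for each mouse (symbols, WT in blue and KO in red) in TRBJ2-7, the other TRBJ2 segments and all other J segments. The axes do not start at 0, and in the first and second panels the 6 TRBJ2-7 values lie apart from those of the other J segments (39.3 to 40.1 nucleotides and 3.36 to 3.59 bases).

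Within TRBJ2-7, WT and KO mice were compared for 5 measures, and no test passed. The CDR3 of WT clonotypes averaged 39.9 ± 0.279 nucleotides and that of KO clonotypes 39.7 ± 0.372 (exact permutation p = 0.6, n = 3 mice each), and the bases trimmed were 3.52 ± 0.0929 and 3.43 ± 0.116 (exact permutation p = 0.3). The largest clonotype held 15.9% ± 13.4 of the TRBJ2-7 UMIs in WT and 21.2% ± 18.4 in KO (exact permutation p = 0.7), a difference whose sign turned without KO replicate 1 (−5.09 percentage points). The mean Morisita-Horn index was 0.772 ± 0.135 for WT and 0.594 ± 0.214 for KO mice (difference −0.178, exact permutation p = 0.4). The difference was −0.0561 without KO replicate 3, whose mLN library was the shallowest, and −0.116 without WT replicate 3. The clone size index was 0.00 ± 0.53 and −0.02 ± 0.25 (exact permutation p = 1), and with 3 mice against 3 none of these 5 tests can go below 0.1.

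The V segments joined to TRBJ2-7 were mostly those of the whole repertoire. TRBV13-2 led with 12.4% ± 1.41 of TRBJ2-7 clonotypes (10.7% ± 0.848 of the others, edgeR adjusted p = 0.0946), followed by TRBV5, TRBV31 and TRBV3 with 10.4% ± 1.73, 9.53% ± 2.24 and 9.52% ± 1.68. Of 20 V segments tested with edgeR, with the organs of a mouse pooled, 2 (10%) passed an adjusted p of 0.05, 1 in each direction.

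TRBV26 was joined to TRBJ2-7 less often than to other J segments. Its share of TRBJ2-7 clonotypes was 2.05%, 3.25% and 2.73% in WT replicates 1, 3 and 4 and 2.27%, 1.84% and 2.69% in KO replicates 1, 2 and 3, against 3.29% to 4.29% of other clonotypes, with no overlap. The log2 fold change was −0.58 (SE 0.10, edgeR adjusted p = 0.0123, lower in 6 of 6 mice), from 77 TRBJ2-7 clonotypes. Without WT replicate 4 it was −0.56 and did not pass (edgeR adjusted p = 0.142).

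TRBV15 was joined to it more often. It took 4.11%, 4.51% and 5.23% of TRBJ2-7 clonotypes in the WT mice and 6.36%, 3.68% and 3.91% in the KO mice, against 2.79% to 3.74% of other clonotypes (log2 fold change 0.46, SE 0.12, edgeR adjusted p = 0.0474, higher in 6 of 6 mice, 134 TRBJ2-7 clonotypes). This call was lost without any one of 5 mice, all but KO replicate 2 (edgeR adjusted p = 0.0691 without WT replicate 1, 0.0710 without KO replicate 3, 0.104 without KO replicate 1, 0.152 without WT replicate 3 and 0.170 without WT replicate 4). DESeq2 called neither V segment (adjusted p = 0.502 for TRBV26 and 0.471 for TRBV15) and no other, with 2 at an unadjusted p under 0.05. By UMIs in place of clonotypes, neither passed (log2 fold change −1.35 for TRBV26, edgeR adjusted p = 0.386, and 0.41 for TRBV15, edgeR adjusted p = 0.751).

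**Figure D5:**
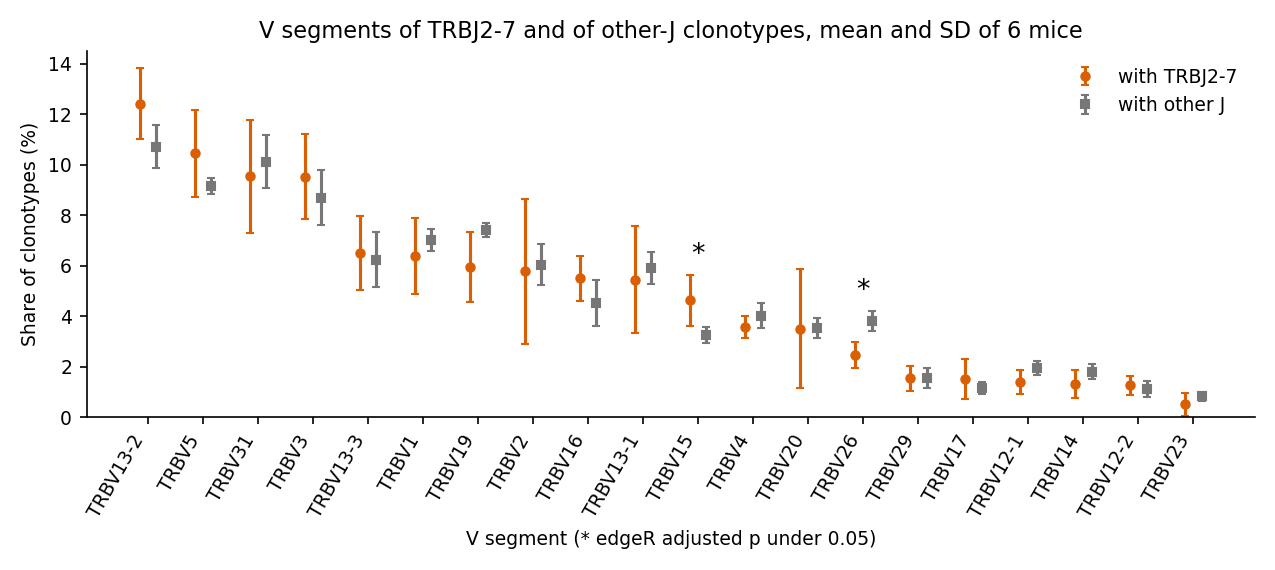
Share of each tested V segment among clonotypes with TRBJ2-7 (orange circles) and with other J segments (grey squares), as mean and SD of 6 mice. The asterisks mark TRBV15, at 4.63% with TRBJ2-7 and 3.26% with other J segments, and TRBV26, at 2.47% and 3.82%.

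Some TRBJ2-7 CDR3s recurred between mice. Of 2568 distinct in-frame amino acid sequences with at least 2 UMIs, 195 (7.59%) were found in at least 2 mice and 36 in at least 3, and the most widespread reached 4 of 6 mice. For other J segments the share was 6.42% (770 of 11997), with 106 in at least 3 mice, and the most widespread reached 5 mice. In 112 of the 195 the recurring receptor was encoded by different nucleotide sequences in different mice. The same held for 393 of the 770 with other J segments and for 222 of 443 with other TRBJ2 segments. Recurring sequences held fewer bases between V and J, with means of 7.99 against 10.04 in those of 1 mouse. This was not particular to TRBJ2-7: the means were 6.92 against 8.92 for other J segments and 7.34 against 9.47 for other TRBJ2 segments.

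The recurring receptors are shown by the nucleotide sequences behind 3 of them, again with the bases aligned to TRBJ2-7 in capitals, to show how the same receptor was encoded in different ways.
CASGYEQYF (TRBV13-2, WT replicates 3 and 4): tgtgccagcgggTATGAACAGTACTTC
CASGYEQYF (TRBV13-2, KO replicates 1 and 3): tgtgccagcggaTATGAACAGTACTTC
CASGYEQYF (TRBV13-2, WT replicate 4): tgtgccagcggtTATGAACAGTACTTC
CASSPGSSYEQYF (TRBV15, KO replicates 1, 2 and 3): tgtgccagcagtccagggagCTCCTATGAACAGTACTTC
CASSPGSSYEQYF (TRBV24, WT replicate 4): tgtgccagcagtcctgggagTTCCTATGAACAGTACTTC
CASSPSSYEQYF (TRBV3, KO replicate 3 and WT replicate 4): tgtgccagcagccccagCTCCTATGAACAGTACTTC
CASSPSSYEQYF (TRBV16, WT replicate 3): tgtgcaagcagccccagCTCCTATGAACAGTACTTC
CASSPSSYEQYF (TRBV3, KO replicate 1): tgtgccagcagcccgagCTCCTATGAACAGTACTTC
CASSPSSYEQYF (TRBV3, WT replicate 3): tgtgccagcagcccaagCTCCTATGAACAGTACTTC
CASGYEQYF, with only 9 residues, was present in 2 WT and 2 KO mice and reached 0.810% of the UMIs in WT replicate 3 mLN. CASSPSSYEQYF was present in 2 WT and 2 KO mice with 4 nucleotide sequences and at most 0.0463% of a library. The sequences shown held from 3 UMIs (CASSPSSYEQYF with TRBV3, WT replicate 3) to 10857 UMIs (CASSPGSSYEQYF with TRBV15), summed over libraries. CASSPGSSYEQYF with TRBV24 held 5 UMIs, and the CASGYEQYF sequences held 3329, 18 and 12 in the order shown. Some recurrences thus rested on few UMIs.

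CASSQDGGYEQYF likewise occurred in 2 WT and 2 KO mice with 4 nucleotide sequences. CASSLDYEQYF occurred in 1 WT and 2 KO mice. Among clonotypes of at least 2 UMIs, each of these mice had a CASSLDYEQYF nucleotide sequence and V assignment of its own (TRBV3, TRBV12-2 and TRBV16). Leading clonotypes were looked up in other mice without a minimum of UMIs. The exact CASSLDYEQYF sequence that led WT replicate 3 was then found in 2 libraries of other mice, at no more than 0.00101%. The exact sequence of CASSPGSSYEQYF that led KO replicate 1 was found in 4 libraries of other mice at no more than 0.0244%, and that of the TRBV13-3 clonotype of WT replicate 1 in 5 libraries of other mice at no more than 0.00664%. Whether these low counts, or the low counts among the recurring receptors above, were carried over between libraries was not tested.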

How the data were processed

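TCR beta cDNA from CD4+ T cells of 6 mice (12 libraries) was profiled. Per their methods, the authors tagged each cDNA molecule with a UMI, clustered reads with MIGEC and aligned V, D and J segments with MiXCR at default parameters; versions and the V and J reference are not given in the sources used here. The deposited clone counts were taken as UMIs, and the deposited clone fraction of each library as those counts over its total. Merging of similar UMIs or clonotypes before deposition could not be redone.

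Members and lists were chosen with earlier results of these data known. J and V counts were tested with edgeR 4.0.16 (quasi-likelihood, library totals as size, at least 10 counts in at least 3 columns, Benjamini-Hochberg adjustment). The fits were checked on simulated counts with planted changes larger than any reported here. That check does not cover changes of the reported size. Other values were compared by two-sided exact tests (Python 3.11.15, scipy 1.17.1). Named V segments were the called ones, at most 5 per direction. Named J segments were the 2 nearest in mean UMI share and the 3 with the highest Pearson coefficient. Named clonotypes were the largest of libraries and the 6 recurring in most mice with at least 2 nucleotide sequences. Alternatives covered DESeq2 1.42.0, TMM, filters, weights, depth (2488 UMIs drawn 50 times), organs and mice left out; other TRBJ2 segments as the reference were added after seeing the data. Counts of 3 correspond, over the libraries, to shares of 0.000608% to 0.121%.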

Additional observations from a re-analysis of the deposited data

How the results depend on the processing

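Of 242 alternative values for 21 results, 177 kept direction and side of the threshold (an adjusted p of 0.05 in fits, an unadjusted exact p of 0.05 elsewhere), 44 no longer passed and 21 changed sign. Some of these outcomes were fixed in advance. The exact genotype tests cannot go below p = 0.1, so none of their alternatives could pass. The exact sign-flip test with 1 mouse left out cannot go below p = 0.0625, so it could not pass either. Weighting by UMIs gave −1.42 for the CDR3 length difference, 0.27 for J bases trimmed and 0.53 for bases between V and J. Other TRBJ2 segments as the reference, chosen after seeing the data, gave 5.41 for the TRBD2 share and −0.037 for the clone size index, which in mLN alone was −0.21. V segments called were 1 by UMIs (TRBV23, neither TRBV15 nor TRBV26), 0 with DESeq2 and 3 against other TRBJ2 segments. In mLN alone the KO minus WT difference was 0.0755 for CDR3 length and 0.0285 for the clone size index. DESeq2 gave 0.16 for the interaction, and all clonotypes −0.00895 for spleen clonotypes. The causes were not tested.

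Leaving out 1 mouse gave −0.42 to 0.37 (spleen UMIs), −0.26 to 0.0428 (mLN UMIs), −0.32 to 0.15 (interaction, above 0 without KO replicate 1, WT replicate 3 or WT replicate 4), −0.0106 to 0.0913 (spleen clonotypes, below 0 without KO replicate 2) and 0 to 2 V segments called. For TRBJ2-7 minus other J it gave −2.01 to −1.80 (length), 0.92 to 0.98 (bases trimmed), 21.1 to 25.1 (TRBD2 share), 1.0002 to 1.205 (bases between V and J), −0.15 to 0.11 (clone size index) and −0.038 to 0.0245 (organ overlap); 5 mice cannot go below an exact p of 0.0625. For KO minus WT it gave −0.30 to 0.067 (length), −0.25 to 0.26 (clone size index), −5.09 to 13.01 (largest clonotype) and −0.26 to −0.0561 (organ overlap).

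WT and KO share the numbers 1 and 3, and their J usage deviations correlated at −0.21 on average (−0.73 to 0.10 over 4 pairs). With only these numbers shared, the correlation cannot decide whether they pair WT and KO mice. The main genotype tests did not pair them. The organs of a mouse correlated at 0.72 (0.55 to 0.82). A replicate block gave log2 fold changes of −0.16 and −0.24 for spleen and mLN UMIs and 0.01 and −0.10 for clonotypes, and without the block the organ difference was −0.45, with no call changed.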

Other observations

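In-frame clonotypes with a stop codon and at least 2 UMIs were few, 173 over all libraries, and 40 of them carried TRBJ2-7 (21.2% ± 12.97 per mouse, 0 to 40% over 6 mice). Among the leading TRBJ2-7 clonotypes of the 12 libraries, that of KO replicate 2 mLN, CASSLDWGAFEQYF, had a phenylalanine in place of the germline tyrosine and an alanine in place of the serine, and it made up 1.27% of that library and 0.881% of the spleen library of the same mouse. The other leading clonotypes outside the pair of replicate 1 mice made up 0.986% (WT replicate 3 mLN) to 2.17% (KO replicate 3 mLN) of their libraries.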
